A study of Mus musculus with 14 samples.

Results

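The guanylate-binding protein (GBP) family was described here as 10 genes of the mouse, Gbp2, Gbp2b, Gbp3, Gbp4, Gbp5, Gbp6, Gbp7, Gbp8, Gbp9 and Gbp10, chosen by gene symbol alone from the 17656 genes measured in liver. RNA of 14 livers was sequenced, 1 library per mouse. Male WT mice received saline (WT saline, n = 3) or concanavalin A (WT ConA, n = 4), and mice labelled Ythdf1 knockout received saline (KO saline, n = 3) or ConA (KO ConA, n = 4), in both cases by the intravenous route, with ConA at 8 mg/kg and liver taken at 8 h. The sex comes from the study's account of the experiment. The mice of all 4 groups were 8 weeks of age and on a C57BL/6 background, and the knockout was made with CRISPR/Cas9 in the whole animal. The study used these livers to ask how loss of Ythdf1, which encodes a reader of m6A marks on mRNA, alters the inflammatory response of the liver to ConA.

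GBPs are large GTPases of the dynamin superfamily. They are low in most resting cells and are induced by interferon gamma, in part through IRF1. The proteins assemble on membranes of pathogen vacuoles and on bacteria that have reached the cytosol, where they help to open the vacuole and to feed bacterial ligands to inflammasomes. ConA is a lectin that activates T cells and NKT cells, whose interferon gamma then acts on hepatocytes and other liver cells.

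The 10 genes lie in a pair of gene clusters, with 5 members each. A further annotated gene, Gbp11, is not among the 10 and was not described. On chromosome 3 (GRCm38.p6, plus strand) the order is Gbp5 at chr3:142496934-142522344, Gbp7 at chr3:142530336-142550151, Gbp3 at chr3:142560016-142573213, Gbp2b at chr3:142594816-142619179 and Gbp2 at chr3:142620663-142638008. On chromosome 5 (minus strand) the order is Gbp8 at chr5:105012513-105053609, Gbp9 at chr5:105076464-105110357, Gbp4 at chr5:105115767-105139586, Gbp10 at chr5:105215699-105239533 and Gbp6 at chr5:105270702-105295871. The clusters span 141.1 kb and 283.4 kb, and no other protein-coding gene of the files lies inside either of them. The longest coding transcript has 10 exons in Gbp8 and 11 exons in each of the other 9 genes.

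Since interferon is known to act on GBP genes through their promoters, the stretches that match a pair of interferon motifs are shown, for members that rose after ConA and for Gbp2b, which did not pass the filter. GAS, the gamma-activated site of interferon gamma targets, was searched as TTCNNNGAA. The core of ISRE, the interferon-stimulated response element to which IRF proteins bind, was searched as GAAANNGAAA. Both strands were read over 250 bases before and 50 bases after the transcription start, in RefSeq windows of GRCm38.p6. Windows were at hand for 5 members, all on chromosome 3, and 1 of these, Gbp3, had a pair of windows for alternative starts. The other 5 members, Gbp4, Gbp6, Gbp8, Gbp9 and Gbp10, were not analysed in this respect. Capitals mark the matched bases, and positions count back from the transcription start.
Gbp2, ISRE core at -59, chr3:142620594-142620623: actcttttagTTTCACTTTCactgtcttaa
Gbp2b, ISRE core at -137, chr3:142594700-142594729: gtacttctaaTTTCACTTTCttctttatca
Gbp3, overlapping ISRE cores at -45 and -39, chr3:142559992-142560021: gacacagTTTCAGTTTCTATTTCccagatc
Gbp5, ISRE core at -165, chr3:142496759-142496788: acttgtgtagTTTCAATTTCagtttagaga
Gbp5, GAS at -52, chr3:142496872-142496900: tggccgttatTTCTCAGAAccaagcacag
Gbp5, GAS at -245, chr3:142496684-142496707: gcaacTTCTGGGAAattagttcag
Gbp7, ISRE core at -53, chr3:142530273-142530302: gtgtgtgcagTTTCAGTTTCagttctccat
Gbp7, GAS at -87, chr3:142530239-142530267: aagcagaagcTTCTCAGAAagtcagcaca
Gbp7, GAS at -106, chr3:142530220-142530248: tccgttttctTTCCAGGAAaagcagaagc

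Each of the 5 members with a window held an ISRE core, on the minus strand, in at least 1 window, against 3.44% of all 32851 promoter windows. GAS was found in Gbp5 and Gbp7 and in 8.3% of all windows. Both motifs together stood in the windows of Gbp5 and Gbp7 and in 0.454% of all windows. The matched bases of Gbp2 and Gbp2b were identical, as were those of the GAS nearest to the start in Gbp5 and Gbp7. A match is a description of the letters and not a measured binding site.

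The values are in TPM, a share of the transcripts of a library that takes transcript length into account, so levels of different genes can be set side by side. The depth behind the values is unknown, since TPM carries no read number, so every error given here is that between mice. WT saline replicates 2 and 3 were closer to each other than any other pair of replicates, with a median absolute log2 difference of 0.0793 over 11327 genes against 0.128 to 0.397 in the other pairs. Replicate 3 stood apart in both ConA groups, where the scale factor of the library (a median of ratios over genes) was 0.791 in WT ConA and 0.847 in KO ConA, against 0.966 to 1.19 in the other libraries. Ythdf1 itself was at 12.03 to 13.9 TPM (WT saline), 18.4 to 20.8 TPM (KO saline), 18.7 to 25.6 TPM (WT ConA) and 15.5 to 26.2 TPM (KO ConA). A value for the gene as a whole thus could not serve to check the genotype. The hepatocyte markers Alb, Apoa1, Ttr, Cps1 and Cyp2e1 summed to between 49950 and 130900 TPM in each liver.

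Some members share reads, since the reads were single-end with 50 bases. Of the 50-base stretches of the Gbp6 transcript, 62.3% also occur in Gbp10, and 70.6% of those of Gbp10 occur in Gbp6. An annotated readthrough gene, Gm43302, shares stretches with both, and leaving it aside 29.7% of Gbp6 stretches and 26.1% of Gbp10 stretches were found in no other gene. The values of Gbp6 and Gbp10 are therefore uncertain one against the other, and their sum is given beside them where it matters. The remaining 8 members had 78.8% (Gbp8) to 99.1% (Gbp5) of their stretches in no other gene.

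In the livers of saline mice the family was expressed at a low level. The 10 genes summed to 34.1 ± 2.79 TPM (SD, n = 3) in WT saline and 25.5 ± 6.07 TPM (SD, n = 3) in KO saline. That is 0.00341% and 0.00255% of the transcripts of a library. Gbp3 had the highest mean in both groups, with 7.50 ± 1.05 TPM in WT saline and 5.39 ± 0.929 TPM in KO saline, followed by Gbp6. Neighbours in the order of levels overlapped in their ranges, with the exceptions of Gbp8 above Gbp9 in WT saline and Gbp5 above Gbp2b in KO saline. The lowest means in WT saline were those of Gbp5 (0.800 ± 0.275 TPM), Gbp2b (0.957 ± 0.612 TPM), Gbp4 (1.17 ± 0.110 TPM) and Gbp9 (1.18 ± 0.306 TPM).

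After ConA the same family summed to 1642 ± 694 TPM (SD, n = 4) in WT mice and 2184 ± 79.2 TPM (SD, n = 4) in KO mice, or 0.164% and 0.218% of the transcripts of a library. The order of the members was different. Gbp2 stood first in all 8 ConA livers, above Gbp6 without overlap, and rose from a rank of 7077 to 8353 among the 17656 genes in saline livers to a rank of 90 to 264 in ConA livers. Gbp6, Gbp10 and Gbp3 followed, of which Gbp10 and Gbp3 overlapped in both genotypes. Gbp7, Gbp5, Gbp4 and Gbp9 were intermediate, Gbp8 was ninth, and Gbp2b was last.

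**Figure D1:**
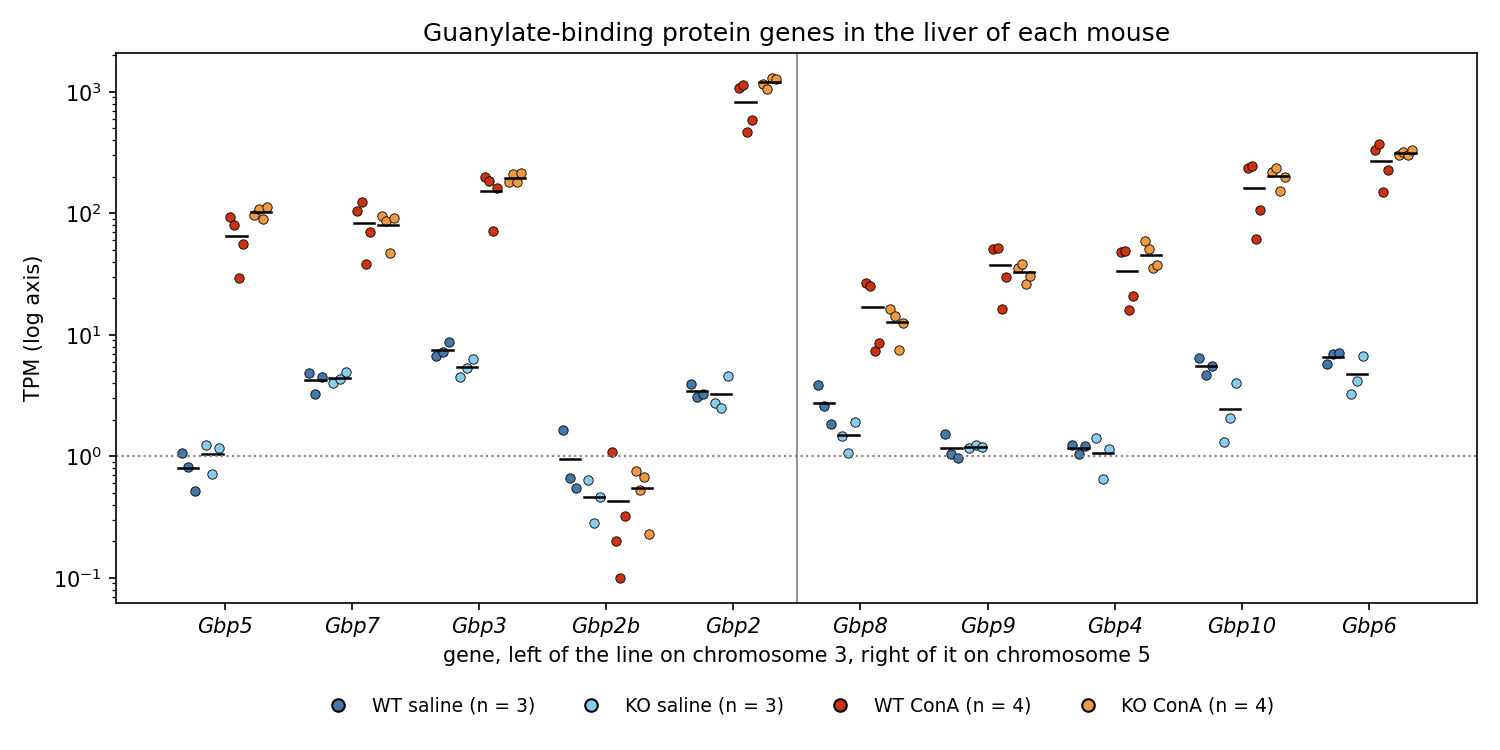
TPM of each GBP gene in each mouse on a log axis, with 1 point per mouse, a bar at the group mean and a dotted line at 1 TPM. The points of 9 genes lie higher in every ConA mouse than in every saline mouse of the same genotype, and those of Gbp2b overlap between all 4 groups.

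ConA raised 9 of the 9 members tested in WT mice. Only genes that reached a TPM of 1 in 3 or more libraries of the comparison were tested, in limma on log2(TPM + 1), and a call means that the Benjamini-Hochberg adjusted p was under 0.05. Of all genes tested in this comparison, 53% were called, 22% higher and 31% lower. The filter passed 7 of the members on the saline mice alone, whereas Gbp5 and Gbp9 passed only through the ConA mice and so had to differ. The 7 were called, with log2 fold changes of 2.08 to 7.43 and a median of 4.10, against a median of -0.07 over all genes. When all 10 members were fitted without a filter, 9 were called.

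The member with the steepest response was Gbp2, whose protein carries a prenyl anchor and is among the first GBPs to reach the parasite vacuole of Toxoplasma. It had 3.92, 3.09 and 3.24 TPM in WT saline and 1083, 1141, 464 and 583 TPM in WT ConA. All 4 ConA mice were far above all 3 saline mice, and the ratio of the means was 239. In WT mice the log2 fold change was 7.43 ± 0.305 (SE; limma adjusted p = 3.58e-07), which had a rank of 6 among 10768 genes. In KO mice it went from 2.72, 2.52 and 4.59 TPM to 1165, 1056, 1300 and 1273 TPM, with a log2 fold change of 8.16 ± 0.164 (SE; limma adjusted p = 1.1e-10).

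Gbp5, which is also prenylated and promotes assembly of the NLRP3 inflammasome, was close to the limit of the filter in saline mice. Its values were 1.07, 0.81 and 0.52 TPM in WT saline and 93.6, 80.3, 29.6 and 55.6 TPM in WT ConA. KO saline mice had 1.24, 0.71 and 1.18 TPM, and KO ConA mice had 97.7, 107.5, 90.3 and 112.1 TPM. The ratio of the means was 81.0 in WT and 97.6 in KO mice. The added 1 understates the rise of a gene with so low a start. On the log2 scale the change was 5.08 ± 0.347 in WT and 5.66 ± 0.147 in KO mice (SE). Gbp5 passed the filter only through the ConA mice in both genotypes, so no p of the filtered fits is given. Fitted without a filter, it had a limma adjusted p of 5.38e-05 in WT and 1.07e-07 in KO mice.

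Gbp3 and Gbp7, the remaining responsive members on chromosome 3, started from higher levels. Gbp3 had 6.67, 7.16 and 8.68 TPM in WT saline against 197.3, 185.6, 72.1 and 161.1 TPM in WT ConA, and 4.51, 5.29 and 6.36 TPM in KO saline against 182.7, 211.9, 180.4 and 213.1 TPM in KO ConA. That was a log2 fold change of 4.10 ± 0.317 in WT and 4.96 ± 0.135 in KO mice (SE). Gbp7, known to promote assembly of the phagocyte NADPH oxidase, had 4.86, 3.27 and 4.5 TPM in WT saline and 104.4, 123.5, 38.2 and 69.8 TPM in WT ConA. In KO mice it had 4.03, 4.32 and 4.95 TPM after saline and 94.8, 87.1, 47.3 and 91.1 TPM after ConA. Its log2 fold changes of 3.91 ± 0.353 and 3.85 ± 0.223 (SE) were close to each other, and no ConA mouse overlapped a saline mouse for either gene.

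Gbp2b, known as Gbp1 in older work, did not follow its neighbours. It lies between Gbp3 and Gbp2 and has 98.2% of its 50-base stretches in no other gene. Its values were 1.66, 0.66 and 0.55 TPM in WT saline, 0.64, 0.28 and 0.46 in KO saline, 1.09, 0.20, 0.10 and 0.32 in WT ConA, and 0.76, 0.53, 0.68 and 0.23 in KO ConA. The 4 groups overlapped, and it stayed under the filter in every comparison. Fitted without a filter, its log2 fold change was -0.46 ± 0.263 in WT and 0.08 ± 0.137 in KO mice (SE; limma adjusted p = 0.22 and 0.667), with 95% intervals of -1.07 to 0.15 and -0.24 to 0.40. In the highest ConA mouse it was at 1.09 TPM, where the adjacent Gbp2 was at 1083 TPM.

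On chromosome 5, Gbp6 and Gbp10 were the most abundant members, and their values must be read together. Gbp6 had 5.72, 7.0 and 7.02 TPM in WT saline and 331.9, 372.9, 149.4 and 228.5 TPM in WT ConA, a log2 fold change of 5.08 ± 0.284 (SE). Gbp10 had 6.40, 4.66 and 5.55 TPM in WT saline and 237.1, 244.5, 61.0 and 106.6 TPM in WT ConA, a log2 fold change of 4.44 ± 0.439 (SE). Their sum rose from 12.1 ± 0.455 TPM (SD, n = 3) to 433.0 ± 193 TPM (SD, n = 4). In KO mice Gbp6 went from 3.23, 4.18 and 6.73 TPM to 299.2, 320.2, 304.3 and 329.5 TPM, and Gbp10 from 1.32, 2.06 and 4.01 TPM to 217.3, 236.8, 153.6 and 199.98 TPM. The log2 fold changes in KO mice were 5.83 ± 0.180 for Gbp6 and 5.93 ± 0.240 for Gbp10 (SE), and the sum went from 7.18 ± 3.20 TPM to 515.2 ± 41.8 TPM (SD).

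In log2 fold changes of TPM + 1, Gbp4, Gbp9 and Gbp8 formed the lower end of the response on this chromosome. By ratios of means in WT mice this held clearly for Gbp8 alone. Gbp4 had 1.24, 1.04 and 1.22 TPM in WT saline against 48.3, 49.0, 15.9 and 21.0 TPM in WT ConA, and 1.42, 0.65 and 1.15 TPM in KO saline against 59.0, 51.1, 35.5 and 37.2 TPM in KO ConA. Gbp9 had 1.53, 1.05 and 0.96 TPM in WT saline against 51.3, 52.0, 16.3 and 29.95 TPM in WT ConA, and 1.17, 1.24 and 1.2 TPM in KO saline against 35.7, 38.1, 26.0 and 30.8 TPM in KO ConA. Both genes rose in WT mice, by 3.84 ± 0.371 and 4.01 ± 0.361 on the log2 scale (SE), and in KO mice, by 4.48 ± 0.210 and 3.92 ± 0.161. The ratios of the means were 28.8 (Gbp4) and 31.7 (Gbp9) in WT mice, beside 29.3 for Gbp10. In KO mice these ratios were 42.6 and 27.1, beside 82.0 for Gbp10. Gbp8 moved least of the tested members, from 3.84, 2.60 and 1.85 TPM to 26.6, 25.2, 7.36 and 8.63 TPM in WT mice and from 1.48, 1.07 and 1.92 TPM to 16.4, 14.4, 7.56 and 12.4 TPM in KO mice. Its log2 fold changes were 2.08 ± 0.440 in WT (limma adjusted p = 0.00334) and 2.43 ± 0.241 in KO mice (SE; limma adjusted p = 8e-06), and its ratios of the means were 6.13 and 8.52.

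In KO mice ConA likewise raised 9 of the 9 members tested, in a comparison in which 64.6% of genes were called, 33.9% higher and 30.7% lower. Again 7 passed the filter on the saline mice alone, with a median log2 fold change of 4.96, and Gbp4 and Gbp5 passed only through the ConA mice. Each of the 9 genes had all 4 ConA values above all 3 saline values in both genotypes, as had 23.3% of all genes tested in WT and 32.8% in KO mice. The calls were kept when any 1 library was left out, and for WT mice when WT saline replicates 2 and 3 were averaged.

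**Figure D2:**
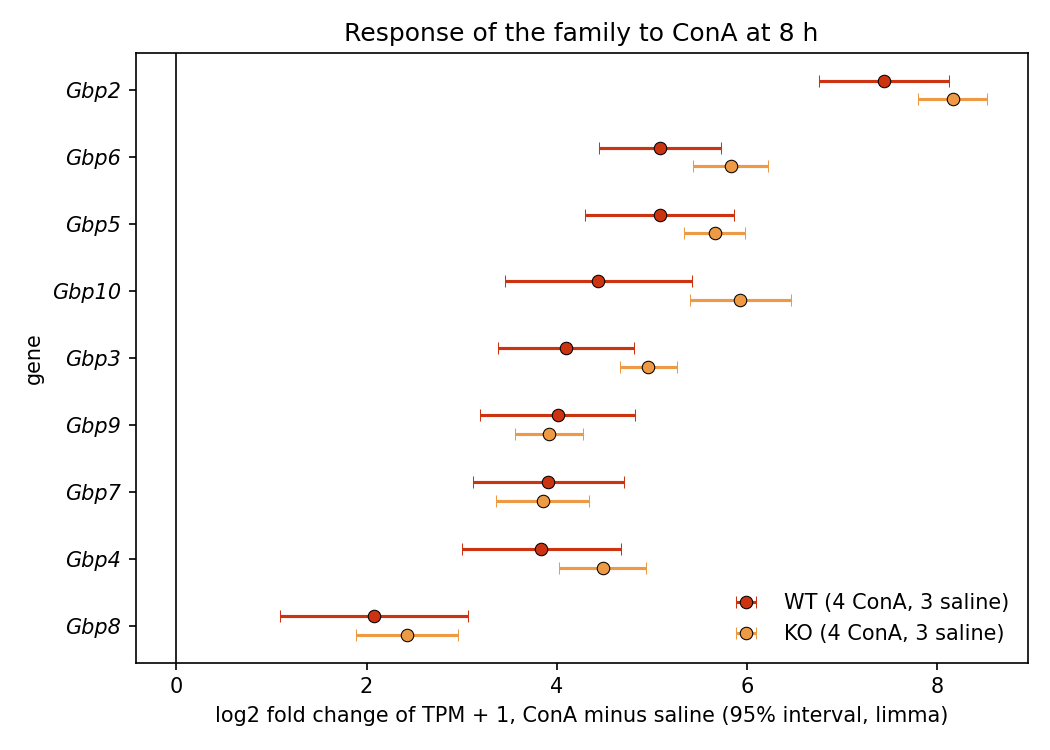
Log2 fold change of TPM + 1 after ConA for the 9 tested members in WT (red) and KO (orange) mice, with 95% intervals from limma. Every interval lies above 0, from 2.08 (Gbp8) to 7.43 (Gbp2) in WT mice and from 2.43 (Gbp8) to 8.16 (Gbp2) in KO mice.

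The unequal rises changed the composition of the family. Gbp2 made up 9.50 to 10.6% of the family sum in WT saline and 11.3 to 14.1% in KO saline, but 46.1 to 54.3% (WT) and 49.7 to 60.6% (KO) after ConA. The genes on chromosome 5 held 48.7 to 52.2% of the sum before ConA and 29.3 to 32.7% after it in WT mice. In KO mice they held 39.6 to 46.1% and 24.6 to 31.1%. The share of Gbp8 in WT mice was 5.43 to 10.4% after saline and 0.683 to 1.22% after ConA. These shares are descriptions with no test.

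**Figure D3:**
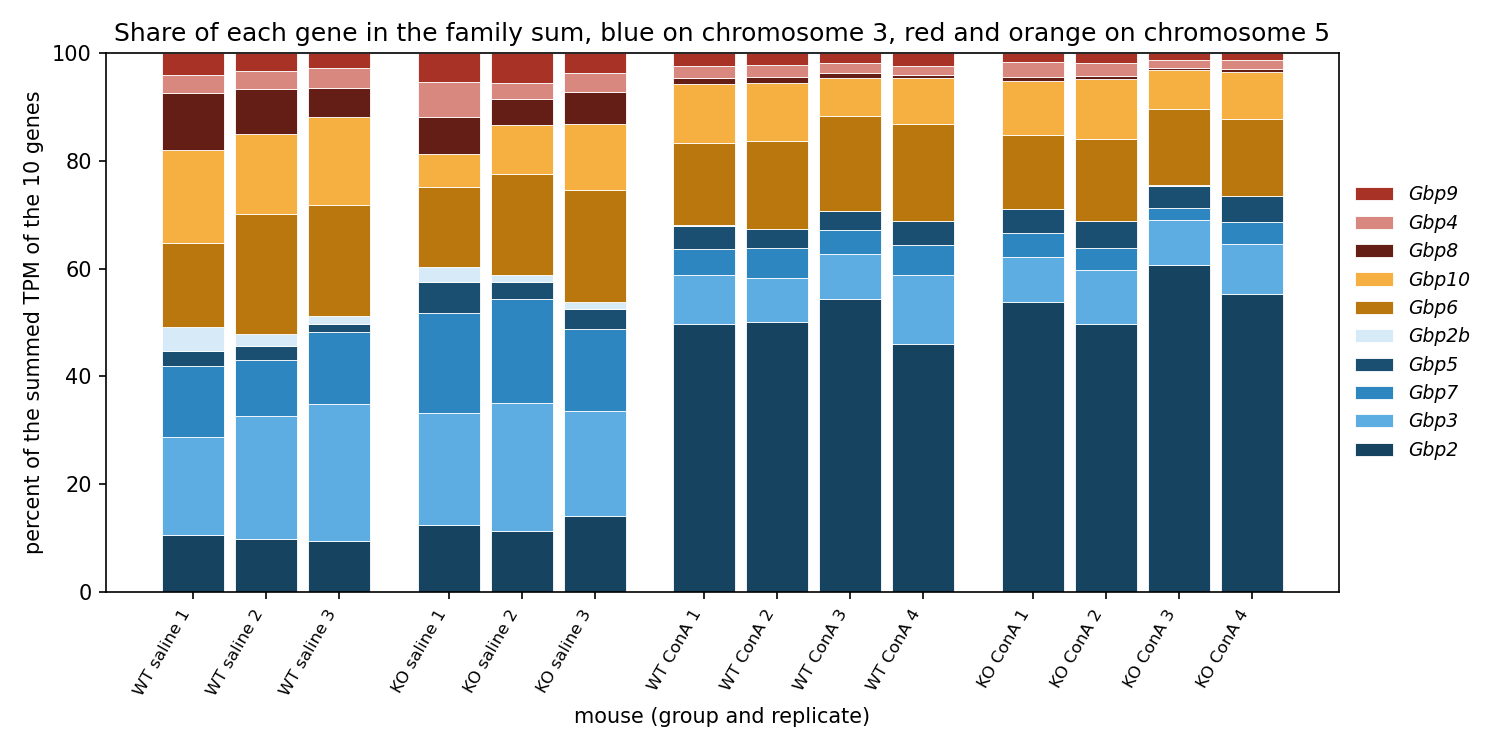
Share of each gene in the summed TPM of the 10 GBP genes, with 1 stacked bar per mouse, blue for chromosome 3 and red or orange for chromosome 5. The lowest, dark segment is Gbp2, which takes 9.50 to 14.1% of the bar in saline mice and 46.1 to 60.6% in ConA mice.

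Within the WT ConA group the members moved together from mouse to mouse. Replicate 3 was the lowest of the 4 mice for all 9 responsive members, at 0.311 to 0.496 of the mean of the other 3 mice, and replicates 1 and 2 were each above the mean of the other 3 mice for each of the 9. The family sum was 2175, 2274, 854 and 1265 TPM in replicates 1 to 4. KO ConA mice were closer to each other, with family sums of 2169, 2123, 2145 and 2300 TPM. KO ConA replicate 3 was the lowest of its group for 7 of the 9 members, although not for Gbp2, of which it had the highest value.

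Marker genes of cell types differed between saline and ConA livers as well. Their counts are to be read against all genes tested, of which 22% were called higher and 31% lower in WT mice. In KO mice 33.9% were called higher and 30.7% lower. The 5 neutrophil markers were called higher in both genotypes, and their sum was 3.61 to 10.4 TPM in the saline livers, against 315 to 553 TPM in the livers of WT mice and 408 to 942 TPM in those of KO mice after ConA. Only S100a8 passed the filter on the saline mice alone. S100a9, Retnlg, Cxcr2 and Csf3r passed only through the ConA mice in both genotypes, so their calls were favoured by the filter. Retnlg was listed at 0 in at least 1 saline library of each genotype. The 6 Kupffer cell and macrophage markers were lower, with 6 of 6 called in WT and 4 of 6 in KO mice, and sums of 63.7 to 106.5 TPM (WT saline), 27.6 to 60.4 TPM (KO saline) and 3.97 to 22.4 TPM (both ConA groups). The 6 T and NK cell markers summed to 1.11 to 2.62 TPM in saline and 2.13 to 7.65 TPM in ConA livers, with Ncr1 and Cd4 at 0 in at least 1 library each, and B cell markers stayed between 0.34 and 2.33 TPM. Only 1 of the 6, Nkg7, passed the filter, through the ConA mice, with means of 0.63 (saline) and 2.36 TPM (ConA) in WT mice. Its means in KO mice were 0.823 and 3.44 TPM. Cd4 went the other way, from 0.15 to 0.065 TPM in WT and from 0.233 to 0.128 TPM in KO mice (means). The 5 hepatocyte markers were called lower in both genotypes, and of the 5 sinusoidal endothelial markers 2 were called higher and 2 lower. In WT mice the endothelial marker Lyve1 passed the filter only through the ConA mice. The endothelial marker Kdr and the Kupffer cell markers Adgre1, Vsig4 and Timd4 passed it only through the saline mice. The part of these shifts in the rise of the GBP genes was not tested. In whole liver, fewer cells of a type and less RNA per cell cannot be told apart.

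Genotype was compared first in saline mice. Of the 9 members tested 1, Gbp10, was called, and it was lower in KO mice, in a comparison in which 19.2% of genes were called and 12.9% were called lower. Gbp10 had 6.40, 4.66 and 5.55 TPM in WT saline and 1.32, 2.06 and 4.01 TPM in KO saline, so that the groups did not overlap, as was so, in the same direction, for 29.2% of all genes tested. The log2 difference was -0.98 ± 0.263 (SE), with a 95% interval of -1.60 to -0.37 (limma adjusted p = 0.0418), beside a median of -0.10 over all genes. The call was not stable. It was lost when any library other than KO saline replicate 3 was left out, and also when WT saline replicates 2 and 3 were averaged (-1.03 ± 0.311, adjusted p = 0.122), with an adjusted p of 0.0102 to 0.223 over the alternatives.

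Gbp6, with which Gbp10 shares most of its sequence, had 5.72, 7.0 and 7.02 TPM in WT saline and 3.23, 4.18 and 6.73 TPM in KO saline, a log2 difference of -0.45 ± 0.211 (SE; limma adjusted p = 0.157). The sum of both genes had a range of 11.7 to 12.6 TPM (WT) against 4.55 to 10.7 TPM (KO), without overlap. Gbp3 did not overlap between the genotypes either (6.67 to 8.68 against 4.51 to 6.36 TPM), but did not pass the test, with -0.42 ± 0.137 (SE; limma adjusted p = 0.069). Gbp8 stood at -0.58 ± 0.211 (SE; limma adjusted p = 0.0888). The other 5 tested members had differences between -0.08 (Gbp4) and 0.18 (Gbp5), and the widest of their 95% intervals was that of Gbp2, from -0.50 to 0.35. The sums of the Kupffer cell markers also did not overlap between the saline groups, although 0 of the 6 markers were called (limma) and none was at 0. The sums of the 5 sinusoidal endothelial markers, 12.8 to 21.0 TPM for WT against 21.4 to 36.9 TPM for KO mice, did not overlap either. Of these markers, 2 of 4 tested were called higher, against 6.3% of all genes. With WT saline replicates 2 and 3 averaged, the higher calls over all genes fell from 659 to 29, and the values of these markers are not given for that fit. The part of the Kupffer cell and endothelial markers in the values of Gbp10 was not tested.

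After ConA, 0 of the 9 members tested were called between KO and WT mice with limma, in a comparison in which 0.428% of genes were called. Of the members 2, Gbp2 and Gbp5, had an unadjusted p under 0.05, as had 1753 of all 10519 genes tested. Estimates were above 0 for 7 members and below 0 for Gbp8 and Gbp9, with a median of 0.45 against 0.05 over all genes, and with library rescaling Gbp7 was below 0 as well. Gbp5 had the largest difference, with 64.8 ± 28.3 TPM in WT ConA and 101.9 ± 9.80 TPM in KO ConA (SD, n = 4 each), or 0.76 ± 0.293 on the log2 scale (SE; 95% interval 0.12 to 1.41, limma adjusted p = 0.222). Gbp2 followed with 817.7 ± 344 TPM against 1199 ± 112 TPM, a log2 difference of 0.65 ± 0.264 (SE; 95% interval 0.07 to 1.23, limma adjusted p = 0.248). The values of all 10 genes overlapped between the genotypes.

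The size of these estimates depended on WT ConA replicate 3. Without it the estimate for Gbp5 was 0.44 and that for Gbp2 was 0.41, while Gbp7, Gbp8 and Gbp9 stood at -0.32, -0.53 and -0.40. When both ConA replicates 3 were left out, an alternative chosen after the data were seen, the 9 estimates ran from -0.32 (Gbp8) to 0.49 (Gbp5) with a median of 0.16, and 0 of 9 were called. For Gbp7, Gbp8, Gbp9 and Gbp6 the 95% intervals of the full comparison were -0.74 to 0.76, -1.11 to 0.65, -0.77 to 0.63 and -0.24 to 0.83.

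**Figure D4:**
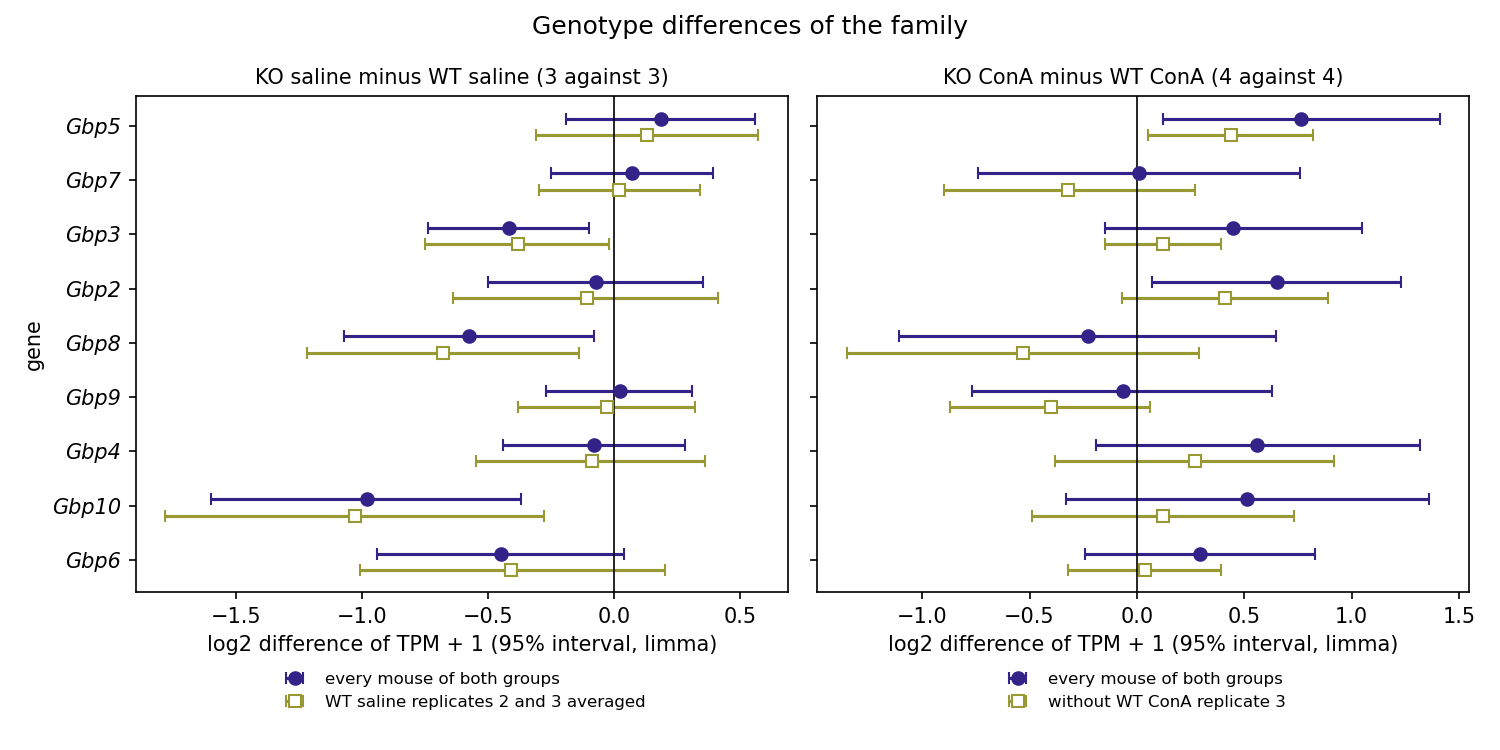
Log2 difference of TPM + 1 between KO and WT mice for the 9 tested members after saline (left) and after ConA (right), with 95% intervals from limma. Filled circles use every mouse, and open squares average WT saline replicates 2 and 3 (left) or leave out WT ConA replicate 3 (right). Gbp10 in saline mice lies at -0.98, and after ConA the estimates run from -0.23 (Gbp8) to 0.76 (Gbp5) with every mouse.

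The interaction asks whether the response to ConA itself differed between the genotypes. It was called for 0 of the 9 members with limma, against 4.78% of all genes. Beside 2862 of 11327 genes tested, 2 of the 9 members had an unadjusted p under 0.05. These were Gbp10, whose rise was larger in KO mice by 1.49 ± 0.554 on the log2 scale (SE; 95% interval 0.31 to 2.68, limma adjusted p = 0.117), and Gbp3, with 0.86 ± 0.369 (SE; limma adjusted p = 0.161). Gbp10 started lower in KO saline mice, as given above, and its ConA levels of 162.3 ± 92.6 TPM (WT) and 201.9 ± 35.6 TPM (KO; SD, n = 4 each) overlapped. The median of the 9 estimates was 0.64, beside 0.14 over all genes. With rescaled libraries these medians were 0.54 and 0.03, and without WT ConA replicate 3 that of the members was 0.35. Gbp7 and Gbp9 had estimates of -0.06 and -0.09.

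Composition after ConA overlapped between the genotypes for some measures and not for others. The share of Gbp9 in the family sum was 1.91 to 2.37% (WT ConA) against 1.21 to 1.79% (KO ConA), without overlap. The shares of Gbp6 (15.3 to 18.1% against 13.8 to 15.1%) and Gbp7 (4.47 to 5.52% against 2.21 to 4.37%) did not overlap either. In TPM, 10.5% of all genes tested had no overlap between these groups. For Gbp8 the share overlapped, with 0.683 to 1.22% (WT ConA) and 0.352 to 0.757% (KO ConA). Relative to Gbp2 it was Gbp8 that separated the genotypes and Gbp9 that did not. Per 100 TPM of Gbp2 the WT ConA livers held 1.48 to 2.45 TPM of Gbp8 and the KO ConA livers 0.582 to 1.41 TPM, without overlap, whereas Gbp9 overlapped, with 3.52 to 5.14 TPM (WT ConA) and 2.0 to 3.61 TPM (KO ConA). These ratios are free of the scale of a library, but they were picked after their values were seen and carry no test.

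Genes of the interferon gamma axis were counted as well. Of its 12 genes, 8 were called higher by ConA in WT mice and 10 in KO mice, and none was called lower. These counts include Ifng and Socs1, which were at most at 0.93 TPM in saline livers. Both passed the filter only through the ConA mice and so had to differ. Of all genes, 22% were called higher in WT and 33.9% in KO mice. Between the ConA groups 0 of the 12 were called, and the interaction was called for 2 of the 12, against 4.78% of all genes. The part of this axis in the rise of the GBP genes was not tested. Ifng, the inducing cytokine, was listed at 0 to 0.14 TPM in saline livers, and had 3.86, 2.46, 1.63 and 1.01 TPM in WT ConA and 6.05, 6.28, 12.1 and 5.02 TPM in KO ConA. The ConA groups did not overlap for Ifng (6.37% of all genes tested were higher in KO mice without overlap), and the log2 difference was 1.38 ± 0.305 (SE; limma adjusted p = 0.0674). Its interaction was 1.41 ± 0.388 (SE; limma adjusted p = 0.0503). Irf1, an interferon-induced factor that acts on GBP promoters, was at 22.7 to 27.9 TPM (WT) and 15.3 to 17.95 TPM (KO) after saline, and at 213 to 352 TPM (WT) and 366 to 425 TPM (KO) after ConA. Between the ConA groups Irf1 was not called, with a difference of 0.48 ± 0.177 (SE; limma adjusted p = 0.21). In saline mice it was called, with lower values in KO mice and a difference of -0.58 ± 0.106 (SE; limma adjusted p = 0.0193), and its interaction was called at 1.06 ± 0.237 (SE; limma adjusted p = 0.0307), as was that of Ifngr2, a chain of the interferon gamma receptor. With WT saline replicates 2 and 3 averaged, these calls were lost, with limma adjusted p values of 0.0825 for Irf1 in saline mice and of 0.0955 and 0.0747 for the interactions of Irf1 and Ifngr2.

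Other interferon-inducible GTPases rose with the GBPs. All 8 of those tested, among 10 listed, were called higher in both genotypes, with median log2 fold changes of 3.45 in WT and 3.97 in KO mice. Of all genes tested, 22% were called higher in WT and 33.9% in KO mice. Tgtp2 and Gvin1 passed the filter only through the ConA mice in both genotypes, so their calls were favoured by it. Iigp1, an immunity-related GTPase that loads onto parasite vacuoles, was at 194 to 220 TPM after saline and 1098 to 2439 TPM after ConA in WT mice, and at 146 to 191 TPM and 1481 to 2559 TPM in KO mice. Igtp, a regulator of such GTPases, rose by 3.67 ± 0.301 in WT and 3.73 ± 0.137 in KO mice on the log2 scale (SE). After ConA, 0 of the 8 were called between the genotypes with limma. Mx1 and Mx2, also listed, were not found under these symbols among the genes measured.

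The 5 genes whose levels followed the family most closely were Iigp1 (Pearson r = 0.9971), Cd274 (0.9958), Tap1 (0.9957), Gm12250 (0.9955) and Irgm1 (0.9942). Here r was taken over the 14 libraries between log2(TPM + 1) of a gene and the mean of the 9 tested members, among 11318 genes. It rests in the main on the gap between saline and ConA mice, which all these genes share. Cd274 encodes the checkpoint ligand PD-L1, Tap1 a subunit of the peptide transporter of antigen presentation, and Gm12250 the immunity-related GTPase Irgb10. Gm12250 went from 0.97 to 2.20 TPM in WT saline to 66.4 to 188 TPM in WT ConA, and Irgm1 from 44.8 to 59.7 to 320 to 730 TPM. Between the ConA groups none of the 5 was called.

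For genes that act with GBP proteins the counts are to be read against the shares of all genes called, 22% higher and 31% lower in WT mice and 33.9% higher and 30.7% lower in KO mice. Of the inflammasome partners, 3 of 5 tested were called higher and 1 lower in WT mice, and 3 of 6 higher and 1 lower in KO mice. Of those called higher, only Gsdmd passed the filter on the saline mice alone. Casp4 and Il1b passed only through the ConA mice in both genotypes, so their calls were favoured by the filter. Gsdmd, the pore-forming protein of pyroptosis, rose by 1.86 ± 0.133 in WT and 2.08 ± 0.117 in KO mice on the log2 scale (SE), whereas Il18, a cytokine released by inflammasome activity, fell by 1.82 in WT and by 1.47 in KO mice. Among the 9 genes of ATG8 conjugation, the lipidation system that helps to bring GBPs to vacuoles, 1 was called higher and 4 lower in WT mice, and 3 higher and 4 lower in KO mice. Gabarapl1, an ATG8 protein, fell by 1.96 in WT mice (from 338 to 357 TPM down to 67.1 to 112 TPM) and by 0.93 in KO mice, and its interaction was called at 1.04 ± 0.240 (SE; limma adjusted p = 0.0332, or 0.104 with WT saline replicates 2 and 3 averaged). Gabarap, a relative of it, changed by 0.14 ± 0.124 in WT mice (SE; limma adjusted p = 0.368).

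The enzymes of CaaX prenylation, which attach the lipid anchor of Gbp2 and Gbp5, were called higher for 2 of 6 in WT and 5 of 6 in KO mice, with none lower, against 22% and 33.9% of all genes. Of the 6 interactions 0 were called (limma), with 1 at an unadjusted p under 0.05, beside 2862 of all 11327 genes tested. Zmpste24, a CaaX protease, changed by 0.11 ± 0.139 in WT and rose by 0.37 ± 0.143 in KO mice (SE; limma adjusted p = 0.545 and 0.0399), and Fnta, the shared alpha subunit of the prenyltransferases, was called in neither. Of the other dynamin-superfamily GTPases, which are not interferon genes, none of the 7 tested was called higher, and 4 in WT and 2 in KO mice were called lower, against 31% and 30.7% of all genes. Atl2, an atlastin that fuses tubules of the endoplasmic reticulum, changed by -0.23 ± 0.263 in WT mice, and Dnm2, a dynamin of endocytosis, by 0.12 ± 0.140 (SE; limma adjusted p = 0.495 and 0.5).

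Among the 17656 genes measured, the nearest protein-coding neighbours of the clusters differed from one another. On chromosome 3, Pdlim5 lies 101.2 kb before Gbp5 and changed by -0.34 ± 0.228 in WT mice (SE; limma adjusted p = 0.233), and Kyat3 lies 63.0 kb after Gbp2 and fell by 0.59 in both genotypes (limma adjusted p = 0.0342 in WT and 0.00453 in KO mice, the former 0.123 with WT saline replicates 2 and 3 averaged). On chromosome 5, Abcg3 lies 29.7 kb before Gbp8 and was at 0.24 to 1.03 TPM in saline and 0 to 0.13 TPM in ConA livers. Lrrc8b, 119.3 kb beyond Gbp6, was at or below 0.09 TPM in saline and higher, at 0.18 to 0.40 TPM, in each ConA liver, and both genes were too low to be tested.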

How the data were processed

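Liver RNA was sequenced on a BGISEQ-500 as single-end reads of 50 bases. The authors deposited 1 table of TPM per mouse. The submitters' processing notes name Bowtie2, RSEM 1.3.1 and GRCm38.p6, whereas the methods of the study describe STAR and HTSeq. How reads shared by paralogs were divided is therefore not known, and no read number is given. Groups and replicate numbers came from the sample labels, which call the mice biological replicates.

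Differences were tested with limma 3.58.1 in R 4.3.3 (lmFit, eBayes with trend) on log2(TPM + 1). Each fit held the libraries of the groups compared, and the interaction all 14. Genes entered where their TPM reached 1 in a number of libraries no smaller than the smaller group. Benjamini-Hochberg adjustment ran over all of these, with calls at 0.05. The procedure was tested on simulated data. Fold changes of low genes are understated by the added 1. Alternatives covered the pseudocount (0.1), the filter (TPM of 5, or no filter), rescaling of libraries, the use of all 14 libraries, robust eBayes, calls that also need a log2 fold change of 1, blocking on replicate number, averaging of WT saline replicates 2 and 3, and leaving out each library, with both ConA replicates 3 left out added after the data were seen. WT saline replicates 2 and 3 stayed separate in the tests, and the averaged values stand beside the results they change for members and named genes, not for cell type markers. Same-numbered samples did not deviate together in every pair (correlations between -0.19 and 0.41), so the number was not used to pair mice.

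Named are the 10 members, Ifng, Irf1, the 2 genes of each pathway list with the highest mean TPM, and the 5 genes most alike to the family. 1 gene that this rule also names is not reported here. Ifngr2, Socs1, Casp4, Il1b, Tgtp2, Gvin1, the single markers named for cell types other than hepatocytes, and the genes beside the clusters were named after their values were seen. Members and lists were chosen with earlier results of these data known. All 10 members matched RefSeq by gene identifier. Shared stretches came from GENCODE vM21 transcripts, and promoters from RefSeq. Python 3.11.15 with pandas 2.3.3 and matplotlib 3.10.9 was used.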

Additional observations from a re-analysis of the deposited data

Results flagged for a closer look

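Gbp7 in KO ConA replicate 3 was at 47.32 TPM, far from the other 3 mice of its group, which had 87.09 to 94.83 TPM. The gap was 0.837 of the range of the group, above the 95% critical value of Dixon's test for 4 samples. It was the only such value in 20 groups tested, and chance gives about 1 in 20. The library was also the lowest of its group for 7 of the 9 responsive members and had a scale of 0.847. Without it, the log2 fold change of Gbp7 in KO mice was 4.08 in place of 3.85.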

How the results depend on the processing

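Both counts of 9 of 9 members called after ConA held in each alternative and with each library left out (9 to 9), as did both counts of 0 of 9 in KO ConA against WT ConA and in the interaction. The 1 member called in KO saline against WT saline, Gbp10, was not stable. The count was 0 with a filter at TPM of 5 (2 members tested), with no filter, with all 14 libraries in the fit, with WT saline replicates 2 and 3 averaged and with a log2 fold change of at least 1, and 0 to 3 with 1 library left out, with 3 without KO saline replicate 3. With the replicate number as a block it was 2, which adds Gbp3 (-0.42, limma adjusted p = 0.0277). The block changed no other call of a member, and the numbers did not pair the mice.

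Some small, uncalled differences changed sign. Gbp9 in saline mice was at -0.03 with the averaged library, and Gbp7 in ConA mice was at -0.07 with rescaled libraries and at -0.09 without both ConA replicates 3, an alternative added after the data were seen. With 1 library left out, the saline differences ran from -0.28 to 0.05 (Gbp2), -0.20 to 0.08 (Gbp4), -0.07 to 0.16 (Gbp7) and -0.05 to 0.14 (Gbp9), those in ConA mice from -0.32 to 0.24 (Gbp7), -0.53 to 0.05 (Gbp8) and -0.40 to 0.13 (Gbp9), and the interactions from -0.39 to 0.17 (Gbp7) and -0.43 to 0.11 (Gbp9). The cause was not tested.

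Counts over all genes moved more. Calls after ConA fell from 5704 to 2607 (WT) and from 7099 to 3453 (KO) with a log2 fold change of at least 1. In saline mice 2009 calls became 967 (no filter), 284 (all 14 libraries), 49 (averaged) and 173 (log2 fold change of at least 1), and 45 to 2739 with 1 library left out. In ConA mice 45 calls became 3 (no filter), 25 (rescaled), 140 (block) and 623 (all 14 libraries), and 5 to 52. The interaction went from 541 to 345 (no filter), 358 (block), 28 (averaged), 1591 (both ConA replicates 3 left out) and 260 (log2 fold change of at least 1), and 22 to 769. Rescaling moved the share of higher calls from 32.8 to 49.1% in saline mice and from 80 to 48% in ConA mice.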
